A study of Mus musculus with 6 samples.

Results

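Cultures of mouse retinal ganglion cells (RGCs) that received a control AAV, an adeno-associated virus vector used for gene delivery, were described from their own RNA-seq libraries. They were the 2 libraries labelled control among the 6 of the series. The other 4 libraries, from cultures given AAV encoding Sox11 or the mutant Sox11K91A, were not used. The RGCs of all groups were purified from mouse retina by immunopanning on CD90.1, a variant of the surface protein that *Thy1* encodes, and 250000 cells were plated per well on laminin. The medium held forskolin, which activates adenylyl cyclases, with 50 ng/ml BDNF and 10 ng/ml CNTF, both survival factors for RGCs. AAV (1.5 μl, 100000 vector genomes per cell) was added 4 h after plating, and medium was replaced 5.5 and 24 h after the virus. Cells were lysed for RNA 72 h after they were plated, and 500 ng of RNA went into each library. The age of the cells is given as embryonic day 18 in the extraction protocol and as postnatal day 2 in the growth protocol, while the names of the deposited tables carry postnatal day 0. The study's methods name C57BL/6 mice of both sexes, without saying which animals gave these cultures, and a control plasmid that encodes EGFP. For the cultures the control vector is called AAV2-GFP-Ctrl. Wells are described as plated in quadruplicate, and sequencing as done on 3 RNA samples in duplicate. Whether the 2 control replicates came from separate cultures or animals is not stated. The spread between them may thus be technical, biological or both, and its source was not tested.

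RGCs are the only neurons that carry signals out of the retina, through axons that form the optic nerve. They release glutamate, fire sodium-channel action potentials, and comprise many subtypes, among them melanopsin, alpha and direction-selective RGCs, that are told apart by a few genes each. In purified culture they survive and extend neurites when neurotrophic factors and cAMP elevation are supplied together.

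The expected counts, the reads that RSEM assigned to each gene, summed to 28392830 in replicate 1 and 37061718 in replicate 2 over 43346 Ensembl genes. Levels are TPM, which divides the reads of a gene by its effective length and scales them to the same total in each library, so that genes can be set side by side, and each pair of values is replicate 1 and then replicate 2. Differences are log2 of replicate 2 over replicate 1, from counts scaled to library size with TMM factors of 0.973 and 1.03, over the 13370 genes with a mean of at least 1 CPM (counts scaled in the same way without the division by length). The length that RSEM gives a gene is averaged over its isoforms in each library, so that a ratio of TPM and a ratio of counts can differ for 1 gene. A gene with 0 counts can hold up to 3 counts per library, which is 0.106 CPM in replicate 1 and 0.0809 CPM in replicate 2. Counts of genes past 2-fold use the scaled counts unless TPM is named. With 1 group of 2 libraries there is no comparison of conditions and no test. The 95% intervals given with a difference are exact binomial intervals that cover counting error only and compare these libraries.

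A gene was taken as detected at a TPM of at least 1 in each library. By this rule 13161 of 43346 genes (30.4%) were detected, among them 12131 of 21474 protein-coding genes, while 22304 genes had 0 counts in both libraries. These shares of all genes and of protein-coding genes are the background for every count of detected list genes below. Of the detected genes, 8674 were at a TPM of at least 10, 1751 at a TPM of at least 100 and 95 at a TPM of at least 1000 in each library. The median TPM of the detected genes was 24.3 in replicate 1 and 21.4 in replicate 2. Just inside the limit, 634 genes had a TPM of 1 to 1.5 in their lower library, and just outside it 1081 genes had 0.5 to 1. The order of the detected genes was close in both libraries (Spearman rho = 0.966 over 13161 genes, which are not independent of each other).

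The most abundant transcripts included those of the mitochondrial genome, of tubulin and neurofilament genes and of ribosomal proteins. The 100 genes with the highest mean held 21.9% of the TPM of replicate 1 and 23.4% of that of replicate 2. All 13 proteins encoded by the mitochondrial genome were detected. The highest of them was *mt-Co1*, a subunit of cytochrome c oxidase, at TPM 10801 and 10288. The whole mitochondrial genome held 5.34% and 5.41% of the TPM. Cytosolic ribosomal protein genes held 5.60% and 7.78%, with 85 of 91 detected.

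Outside the mitochondrial genome, *Gm10925*, a pseudogene, and 4 other pseudogenes (*Gm28437*, *Gm28661*, *Gm10222* and *Gm29216*) were among the 20 most abundant genes, all with uncertain counts. A count was called uncertain where the posterior SD that RSEM gave was above 1% of it, as happens when reads match several genes. The 5 pseudogenes lie close together on the minus strand of chromosome 1, between positions 24612407 and 24616197. Which other genes share their reads was not examined, so the levels and ranks of these 5 are not settled here. *Tuba1a*, the main α-tubulin of growing neurons, had the highest level of the rest, at TPM 5537 and 5180.0. *Nefl*, the light neurofilament subunit of axons, followed at 4406 and 3607. *Uchl1*, a deubiquitinase abundant in neurons, was at 2701 and 3694. *Cartpt*, the precursor of the CART neuropeptide, was at 3111 and 2604, and its ranks were 16 and 28. *Stmn1*, a stathmin that destabilizes microtubules, was at 2197 and 3243. The remaining genes among the 20 were *Ftl1*, *Eef1a1*, *Rpl41*, *Ubb*, *Actg1*, *Gapdh*, *Gnas*, *Tmsb10*, *Atp5b* and *Ppia*. The 20 genes ranked from 3 to 54 within a library, and for 18 of the 19 neighbouring pairs in the order of the mean the ranges of the replicates overlapped, so most neighbours did not differ in level beyond the spread of the replicates. By CPM, which favours long transcripts, 7 of the 20 stayed among the first 20, led by *Nefl* and *Tuba1a*. The plot of TPM against rank places the named genes along the whole range.

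**Figure D1:**
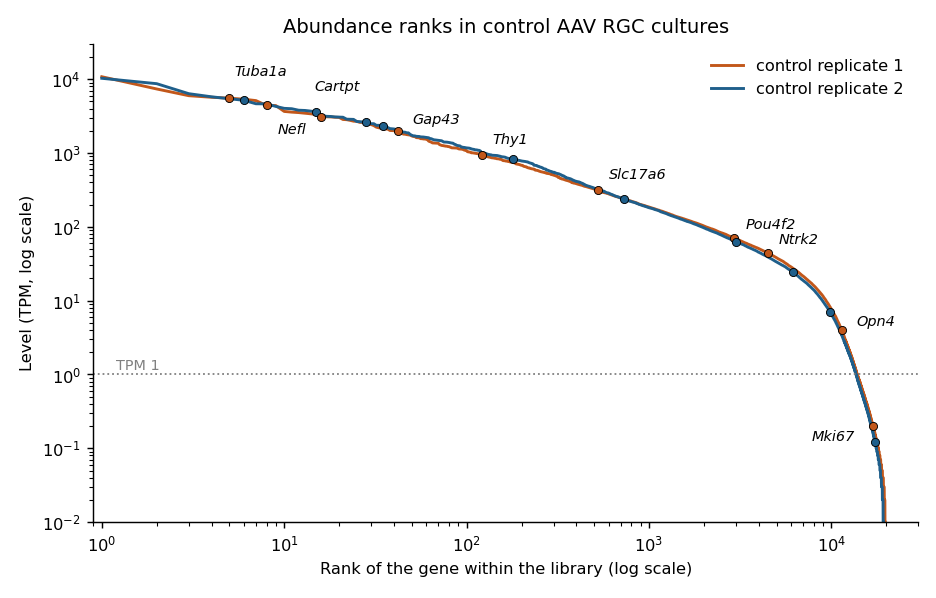
TPM of every gene with counts (vertical, log scale) against its rank within the library (horizontal, log scale), with a line for each control library and points for 10 named genes. The curves lie close together, *Tuba1a* is near the top at TPM 5537 and 5180.0, *Pou4f2* is at 70.5 and 62.7, and *Mki67*, a proliferation gene, is under TPM 1.

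All 6 RGC markers were detected in both libraries, with summed TPM of 4163 and 4216. *Sncg*, encoding γ-synuclein, was the highest at TPM 2353 and 2658. *Thy1*, whose product was the panning target and which is therefore no independent sign of identity, was at 940.5 and 822. *Slc17a6*, the vesicular glutamate transporter of RGCs, was at 313 and 239. *Rbpms*, an RNA-binding protein gene expressed across RGC subtypes, was at 262 and 222. The POU factor *Pou4f1*, which specifies and maintains RGCs, was at 225 and 213. Its relative *Pou4f2* was the lowest of the 6, at 70.5 and 62.7. None of the 6 was over 2-fold apart, against 5.52% of all genes that far higher in replicate 1 and 2.25% in replicate 2. The log2 differences of the 6 ran from -0.26 for *Slc17a6* to 0.28 for *Sncg*. In the order of levels, *Rbpms* overlapped in range with its neighbours *Slc17a6* and *Pou4f1*, and the other neighbours did not overlap. No marker of the labelled cell type was absent.

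**Figure D2:**
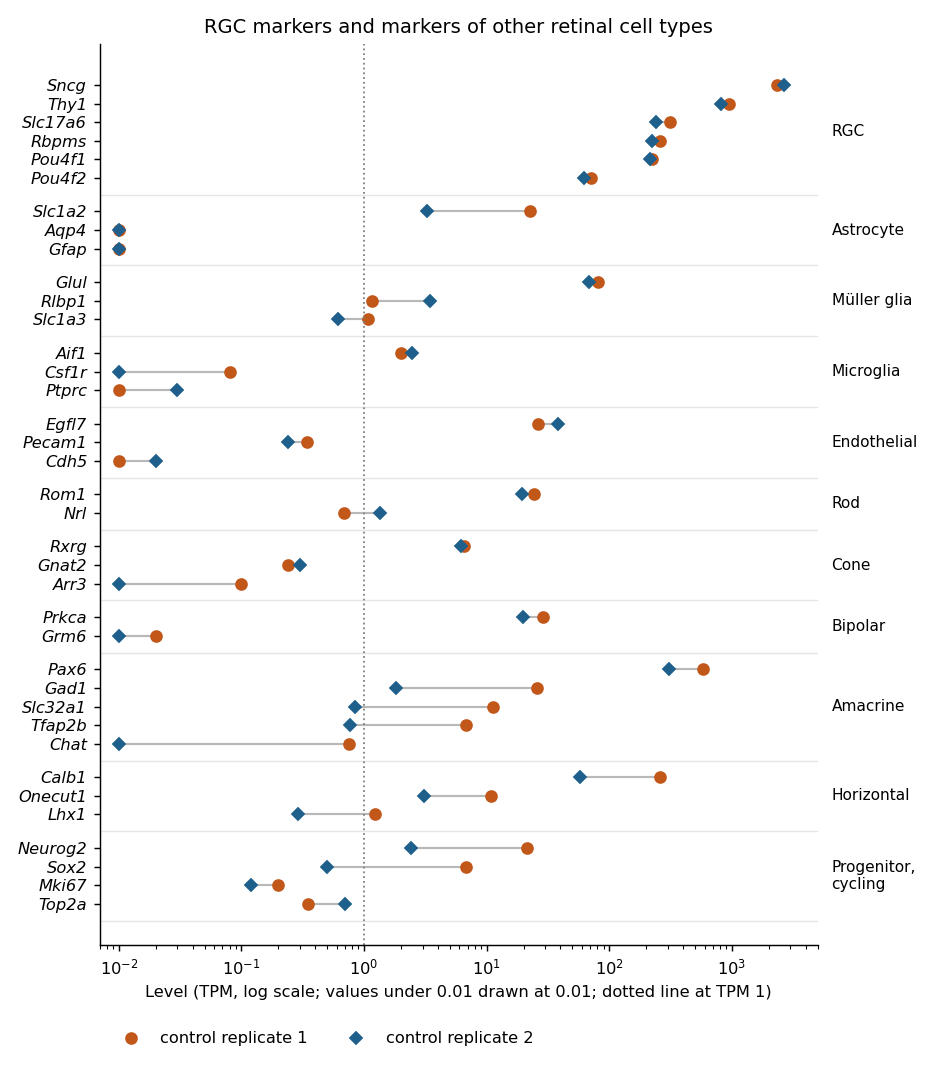
TPM (horizontal, log scale, values under 0.01 drawn at 0.01) of the RGC markers and of chosen markers of 10 other cell types, with a circle for control replicate 1, a diamond for replicate 2 and a grey line joining them. The RGC markers lie from 62.7 to 2658, while defining markers such as *Gfap*, *Ptprc*, *Cdh5* and *Mki67* lie under 1, and the amacrine and horizontal markers drawn lie further left in replicate 2. Among those not drawn are *Calb2* of the amacrine list, at 67.7 and 102, and *Clu* of the Müller glia list, at 2015 and 1302.

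Among 42 transcription factors of RGC development and subtypes, 37 were detected (88.1%, against 30.4% of all genes and 12131 of 21474 protein-coding genes). The median TPM of the 42 was 17.3. The LIM factor *Isl1*, which acts with *Pou4f2*, was the highest at TPM 316 and 245. The SoxC factors, which RGC differentiation requires, were all present. Of these *Sox4* was at 131 and 121 and *Sox12* at 86.4 and 68.5. *Sox11*, which the AAV of the other groups encoded in wild-type or mutant form, was at 56.9 and 73.4. The log2 difference of *Sox11* was 0.50, and 1.10 after the correction for transcript length described further on. *Ebf3*, which acts below *Pou4f2*, was at 115 and 86.6, and *Ebf1* was at 41.9 and 42.0. *Isl2*, found in RGCs that project to the opposite side of the brain, was at 33.0 and 38.5. *Atoh7*, the factor of RGC birth in progenitors, stayed under the limit at 0.30 and 0.86. Of 38 factors with a mean of at least 1 CPM, *Eomes* was over 2-fold higher in replicate 2, and *Bnc2*, *Onecut1* and *Bcl11b* were among the 4 that were over 2-fold higher in replicate 1, against 2.25% and 5.52% of all genes. For *Bcl11b* the difference was under 2-fold after length correction.

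Genes of RGC subtypes spanned a wide range of TPM, and the libraries were less alike here. *Opn4*, encoding melanopsin, the photopigment of intrinsically photosensitive RGCs, was low but detected at TPM 4.02 and 7.01. *Eomes*, the T-box factor of these cells, was at 10.5 and 27.1, a log2 difference of 1.50 (interval 1.35 to 1.64). *Igf1*, a growth factor gene, was at 34.7 and 78.3 (log2 1.39). *Tbx20*, another T-box factor, was at 0.66 and 1.51 (log2 1.63). These genes were all higher in replicate 2. In the other direction, *Rasgrp1*, a Ras activator, was at 24.5 and 6.91. *Adcyap1*, the precursor of the peptide PACAP that melanopsin RGCs release, was under 2-fold apart at 440.2 and 354. In all, 7 of 10 melanopsin RGC genes were detected, beside 30.4% of all genes and 12131 of 21474 protein-coding genes. Of the 9 with a mean of at least 1 CPM, 4 were over 2-fold higher in replicate 2, against 2.25% of all 13370 genes, and 1 was over 2-fold higher in replicate 1, against 5.52%.

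The alpha RGC gene *Spp1*, encoding osteopontin, was at TPM 23.7 and 65.5, a log2 difference of 1.58 (interval 1.43 to 1.74). *Nefh*, the heavy neurofilament subunit that marks large RGCs, was at 93.2 and 51.9. *Calb2*, encoding the calcium-binding protein calretinin, was at 67.7 and 102. *Kcng4*, a potassium channel subunit by which alpha RGCs are often marked, was below the limit at 0.04 and 0.06. Of 8 alpha genes 6 were detected, beside 30.4% of all genes and 12131 of 21474 protein-coding genes. Of 7 with a mean of at least 1 CPM, 2 were over 2-fold higher in replicate 1 and 2 in replicate 2. Of all genes, 5.52% and 2.25% were.

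Of 10 genes of direction-selective RGCs, 8 were detected, beside 30.4% of all genes and 12131 of 21474 protein-coding genes. *Cartpt* held most of the summed TPM of the 10, which was 3606 and 2733. *Calb1*, encoding the calcium-binding protein calbindin, was at TPM 259.8 and 57.7. The cadherin gene *Cdh6* was at 94.4 and 28.3. Both were over 2-fold higher in replicate 1, as were *Col25a1*, *Cdh10*, *Fstl4* and *Mmp17* among others, and 7 of the 9 genes with a mean of at least 1 CPM lay past that limit, against 5.52% of all genes. After length correction 6 of the 9 did, *Col25a1* falling short at -0.74 on the log2 scale. *Cartpt* itself differed by -0.16. *Calb1* also marks horizontal cells, and the summed TPM of amacrine and of horizontal cell markers was higher in the same library. The sums were 916 and 511 for amacrine and 340.0 and 103 for horizontal cell markers. *Calb1* itself held most of the horizontal sum, and *Pax6*, which RGCs also express, held most of the amacrine sum. The part of amacrine and horizontal cells in the difference was not tested. In bulk RNA, fewer cells of a type and less RNA per cell cannot be told apart.

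Among other subtype genes the tachykinin precursor *Tac1* was at TPM 451 and 474. The galanin precursor *Gal* was at 124 and 222. *Sdk2*, an adhesion gene that guides synapses to their layer, was higher in replicate 1 at 54.0 and 13.6. *Prkcq*, a protein kinase C, was higher in replicate 2 at 5.85 and 18.4. *Zic2*, which directs axons to the same side of the brain, was near the limit at 2.29 and 1.22. The sonic hedgehog gene *Shh*, found in contralateral RGCs, was at 28.8 and 32.4, and *Boc*, a hedgehog co-receptor of ipsilateral RGCs, at 0.07 and 0.11.

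All tubulins, neuronal intermediate filament genes and microtubule-associated genes of the lists were detected. The 14 tubulins summed to TPM 13440.5 and 12246. After *Tuba1a* came the neuronal β-tubulin *Tubb2a* at 1678 and 1465, and *Tubb3*, by which neurons are often stained, was at 1360.3 and 1161. The 7 neuronal intermediate filament genes summed to 8087 and 6606. The middle neurofilament subunit *Nefm* was at 2106 and 1972, and α-internexin (*Ina*) at 958 and 679.6. Peripherin (*Prph*) was the only gene of this group over 2-fold apart, at 325 and 74.8 (log2 -1.99). *Stmn2*, a stathmin of growing axons, was at 1515 and 1999.8, and tau (*Mapt*), which binds axonal microtubules, was at 709 and 678.

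All 30 growth cone and axon growth genes were detected, with a median TPM of 456. None was over 2-fold apart between the libraries, against 5.52% of all genes over 2-fold higher in replicate 1 and 2.25% in replicate 2. At these shares few genes of a list of this size would lie past the limit. *Gap43*, a growth cone phosphoprotein, was at 1994 and 2329. *Basp1*, which resembles it in function, was at 1368 and 1164. *Tmsb10*, a thymosin that binds actin monomers, was at 2478 and 3065. Collapsin response mediator genes, which regulate the growth cone cytoskeleton, ranged from *Dpysl3* at 986 and 650.4 to *Dpysl4* at 102 and 90.8. The adhesion gene *L1cam* was at 633 and 407.

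Of 42 genes known from regenerating neurons, 39 were detected, and *Lif*, *Lin28a* and *Il6* were not. *Ecel1*, an injury-induced endopeptidase, was at TPM 521 and 451. The injury-responsive factor *Jun* was at 158 and 167, and *Atf3* at 33.4 and 39.5. *Sprr1a*, which promotes outgrowth, was at 24.2 and 57.7, over 2-fold higher by TPM in replicate 2. Genes that restrain axon growth were transcribed too. *Socs3*, a suppressor of cytokine signalling, was at 54.3 and 42.7. Of the Krüppel-like factors, *Klf7*, which favours growth, was at 67.2 and 60.8, and *Klf4*, which restrains it, was at 3.95 and 3.29.

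Receptors of the factors supplied in the medium were present. *Ntrk2*, the BDNF receptor TrkB, was at TPM 44.3 and 24.3. *Ngfr*, the p75 neurotrophin receptor, was lower at 10.4 and 7.71. *Bdnf* itself was transcribed, at 148 and 90.2. The CNTF receptor *Cntfr* was at 91.6 and 98.9. Its signalling partner *Il6st*, encoding gp130, was at 54.9 and 38.0, and *Lifr*, the other partner, was at 44.4 and 20.2. The transcription factor *Stat3*, which this receptor activates, was at 124 and 82.2. *Cntf* was near the limit at 1.48 and 1.27, with an uncertain count. Of the BDNF list 19 of 20 genes were detected and of the CNTF list 16 of 19. Of the 16 CNTF pathway genes with a mean of at least 1 CPM, none was over 2-fold apart by scaled counts. Of all genes, 5.52% were over 2-fold higher in replicate 1 and 2.25% in replicate 2. By TPM *Lifr* was past 2-fold.

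Among 10 adenylyl cyclases 8 were detected, beside 30.4% of all genes and 12131 of 21474 protein-coding genes. *Adcy1*, the calcium-stimulated neuronal form, was the highest at TPM 128 and 55.2. *Adcy6* followed at 47.8 and 30.9. The soluble form *Adcy10*, which forskolin does not activate, was at 0 and 0.

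Of 36 genes that respond to cAMP or activity, 34 were detected. The secretory genes stood far above the rest, *Vgf* at TPM 2686 and 2212 and *Scg2* at 1550.3 and 1333. The immediate early gene *Fos* was at 215 and 99.1. *Crem*, a cAMP-responsive factor, was at 70.8 and 77.9. *Egr1*, an immediate early zinc finger factor, was low at 5.48 and 8.26, and *Egr3* was at 0.24 and 0. Of the 34 genes with a mean of at least 1 CPM, 8 were over 2-fold higher in replicate 1 and 0 in replicate 2, against 5.52% and 2.25% of all genes. They included the inducible factors *Fosb* at 28.7 and 8.05 and *Nr4a3* at 28.4 and 5.92, and *Npas4*, which depolarization induces, at 14.9 and 4.90. After length correction 10 were over 2-fold higher in replicate 1, against 4.8% of all genes.

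Neuropeptide precursors and granins had 24 of 26 genes detected and summed TPM of 11636 and 10162. Beside *Cartpt*, *Vgf* and *Scg2*, neurotensin (*Nts*) was at TPM 604 and 771. The granin *Chga*, which packs secretory granules, was at 485 and 473, and *Chgb* at 368 and 308. Some of the widest gaps between the libraries were also in this group. *Vip*, the precursor of vasoactive intestinal peptide, was at 132 and 6.36, a log2 difference of -4.25 (interval -4.48 to -4.03). Prodynorphin (*Pdyn*) was at 215 and 14.7, a log2 difference of -3.73 (interval -3.85 to -3.62). *Npy* was at 132 and 29.1, and *Crh*, encoding corticotropin-releasing hormone, at 159 and 60.4. *Sst*, encoding somatostatin, was higher in replicate 2 at 4.64 and 12.5. *Vip* and *Npy* are known from amacrine cells. Among the 21 genes with a mean of at least 1 CPM, 5 were over 2-fold higher in replicate 1 and 2 in replicate 2, against 5.52% and 2.25% of all genes.

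Since the medium held forskolin, which raises cAMP, the cAMP response element (CRE) TGACGTCA was searched in the 250 bases before each RefSeq gene start. The element is its own reverse complement, so both strands give the same matches. Every match in the neuropeptide, cAMP response and RGC factor lists is printed with up to 11 bases on each side and the element in capitals, 5′ to 3′ on the strand of the gene, from RefSeq on GRCm38.p6.
Scg2 (chr1:79440076-79440105, minus strand): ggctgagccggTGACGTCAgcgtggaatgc
Chgb (chr2:132781559-132781588, plus strand): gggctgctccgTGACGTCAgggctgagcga
Cartpt (chr13:99900777-99900806, minus strand): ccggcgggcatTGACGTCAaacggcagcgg
Sst (chr16:23890874-23890903, minus strand): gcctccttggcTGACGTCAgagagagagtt
Btg2 (chr1:134079303-134079332, minus strand): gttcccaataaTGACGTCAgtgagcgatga
Dusp1 (chr17:26508597-26508626, minus strand): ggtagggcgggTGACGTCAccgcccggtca
Isl2 (chr9:55541127-55541148, plus strand): cgagtgcgtgcTGACGTCAtgc

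In the RefSeq entry each stretch lies before the start of the gene. In GENCODE M21, which places some starts further upstream, the elements of *Scg2*, *Chgb*, *Cartpt* and *Sst* lie within an annotated exon and those of *Btg2*, *Dusp1* and *Isl2* do not. The element was found for 4 of 22 neuropeptide and granin genes with a promoter entry (18.2%) and for 3 of 27 cAMP and activity response genes (11.1%), *Scg2* being on both lists. It was found for 321 of 9865 detected genes (3.25%), for 1 of 32 RGC transcription factors and for 478 of all 27025 genes with an entry (1.77%). Of the 6 RGC markers, 4 matched an entry, and 0 of these held the element. Among the genes printed, *Cartpt* had the highest level and *Sst* the lowest. *Dusp1*, a MAP kinase phosphatase, was at TPM 216 and 99.97, and *Btg2*, an antiproliferative gene, was at 20.5 and 23.2. A match describes the letters and is no measure of binding.

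Of 15 voltage-gated sodium channel genes 10 were detected, beside 30.4% of all genes and 12131 of 21474 protein-coding genes. Among the pore-forming subunits, *Scn2a* was the highest at TPM 72.9 and 29.0. *Scn3a*, a form of immature neurons, was at 39.6 and 17.8, and *Scn8a*, the form of mature axon initial segments, at 35.4 and 17.2. Of 12 sodium channel genes with a mean of at least 1 CPM, 2 were over 2-fold higher in replicate 1, against 5.52% of all genes. After length correction 0 were, against 4.8%, and 1 was over 2-fold higher in replicate 2, against 1.7%. Of 18 calcium channel genes 16 were detected. *Cacna1a*, of the P/Q type, was at 134 and 68.7, and *Cacna1b*, of the N type, was at 96.9 and 41.1. The photoreceptor form *Cacna1f* was at 0.33 and 0.35.

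Potassium and HCN channels numbered 61, of which 45 were detected, beside 30.4% of all genes and 12131 of 21474 protein-coding genes. *Kcnab2*, an auxiliary subunit, led at TPM 274 and 117. All 4 HCN genes, which carry the hyperpolarization-activated current, were present, and *Hcn2* was the highest at 79.3 and 67.7. Of 53 genes with a mean of at least 1 CPM, 48 were higher in replicate 1, where 49.3% of all genes were higher. Of these 15 were over 2-fold higher, against 5.52% of all genes, and 0 were over 2-fold higher in replicate 2. A wide difference was that of the leak channel *Kcnk9*, at 29.7 and 2.72 (log2 -3.33). *Kcna2*, a channel of axons, was at 27.8 and 4.06 (log2 -2.64). After length correction 12 were over 2-fold higher in replicate 1, against 4.8% of all genes, and the median log2 difference of the list went from -0.58 to -0.33.

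Of 18 ionotropic glutamate receptor genes 15 were detected, beside 30.4% of all genes and 12131 of 21474 protein-coding genes. *Grin1*, the obligate NMDA receptor subunit, was at TPM 133 and 88.9, and the kainate receptor subunit *Grik5* was at 120.3 and 118. The AMPA receptor subunits ranged from *Gria1* at 51.6 and 57.8 to *Gria3* at 8.18 and 4.77. *Grin2a*, an NMDA receptor subunit of later development, was at 7.76 and 0.53, and *Grin2b*, the earlier form, was at 8.73 and 7.10. Of 21 GABA-A and glycine receptor genes 14 were detected, beside the same shares of all genes and of protein-coding genes. *Gabra2* was the highest at 166 and 109, and the glycine receptor subunit *Glra2* was at 16.6 and 15.2. *Gabrd*, of extrasynaptic GABA-A receptors, stood apart between the libraries, at 20.6 and 2.26 (log2 -2.97).

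Of the vesicular glutamate transporters only *Slc17a6* was detected, while *Slc17a7* was at TPM 0.93 and 0.74 and *Slc17a8* at 0.02 and 0.03. Of 36 synaptic vesicle and release genes 35 were detected. *Snap25*, a SNARE protein of vesicle fusion, was at 1252 and 947. Synaptophysin (*Syp*), a vesicle membrane protein, was at 1167 and 884. Active zone genes were lower, with bassoon (*Bsn*) at 81.7 and 39.3. Of the 36, 29 were higher in replicate 1, against 49.3% of all genes. Over 2-fold higher there were 7, against 5.52%, and after length correction 5, against 4.8%.

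Of 48 guidance genes 44 were detected, beside 30.4% of all genes and 12131 of 21474 protein-coding genes. The median TPM of the 48 was 14.8. The ephrin receptor *Epha5* was at 100.05 and 77.4. *Plxna1*, a semaphorin receptor, was at 101 and 44.1, and *Robo2*, the Slit receptor of RGC axons, was at 95.5 and 32.2, both over 2-fold higher by TPM in replicate 1. The netrin receptor *Dcc* was low at 6.89 and 0.68. Of the genes of axon growth inhibition, Nogo (*Rtn4*) was at 537 and 565 and its receptor *Rtn4r* at 36.7 and 30.2. *Ptprs*, a receptor of chondroitin sulfate proteoglycans, was at 311 and 227. The myelin gene *Mag* was at 0.42 and 0.19.

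Of the BCL2 family and caspases 22 of 25 were detected. *Bax*, which executes RGC death, was the highest at TPM 189 and 284. Its antagonist *Bcl2l1*, encoding BCL-XL, was at 132 and 134, and *Bcl2* was low at 6.17 and 5.49. Of the axon injury genes 17 of 18 were detected. *Map3k12*, the kinase DLK that signals axon damage, was at 101 and 68.3. *Sarm1*, which drives axon degeneration, was at 74.3 and 56.5, and its opponent *Nmnat2* was at 65.5 and 61.5. Of interferon response genes 7 of 23 were detected (30.4%), beside 30.4% of all genes and 12131 of 21474 protein-coding genes. The antiviral gene *Ifit1* was at 0 and 0 and *Mx1* at 0 and 0. *Irf3*, a constitutive factor of the pathway, was the highest at 43.0 and 51.4.

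Long non-coding RNAs included *Meg3*, an imprinted RNA of neurons, at TPM 1776 and 1535 and *Rian*, from the same imprinted cluster, at 1673 and 1477. *Malat1*, a nuclear RNA, was over 2-fold higher by TPM in replicate 2 at 308 and 928, while its counts differed by -0.06 on the log2 scale. The TPM and the counts of this gene thus gave different answers, and its direction between the libraries is not settled here. *Neat1*, of nuclear paraspeckles, was at 0.16 and 0.45. The plot of TPM by list sets these groups side by side.

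**Figure D3:**
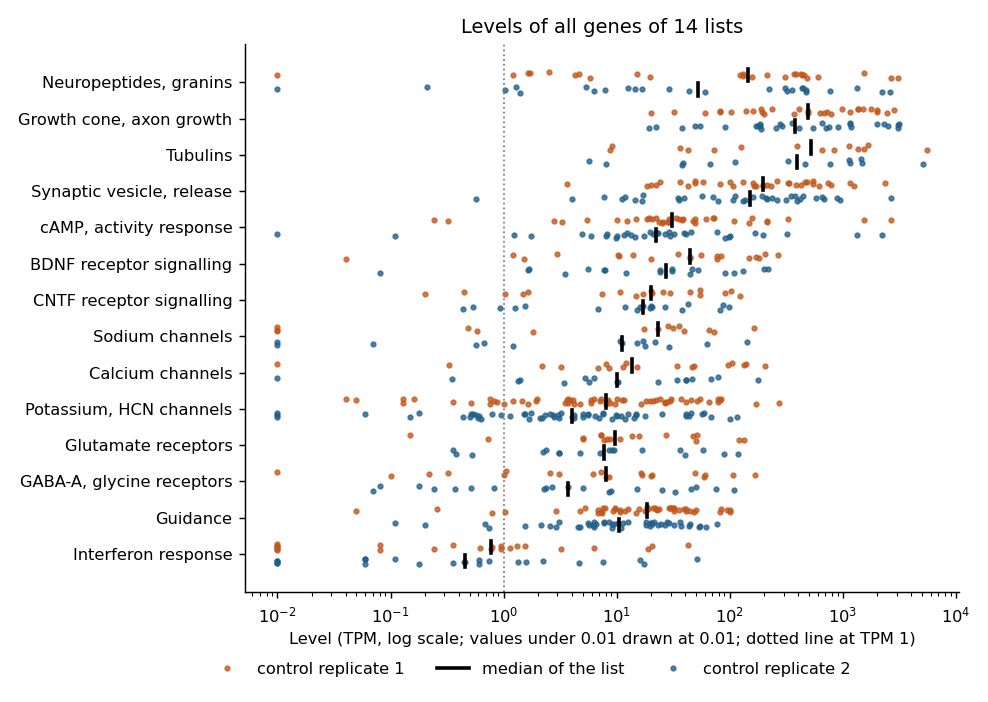
TPM (horizontal, log scale, values under 0.01 drawn at 0.01) of every gene of 14 gene lists, with orange points for control replicate 1, blue points for control replicate 2 and a black bar at each list's median in that library. The growth cone list has all its genes above TPM 1, the interferon list has its median under 1, and the channel, receptor and guidance medians lie further right in replicate 1.

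Markers of other cell types were mostly low. Of 167 distinct markers from 15 lists, 45 (26.9%) were detected, beside 30.4% of all genes and 12131 of 21474 protein-coding genes. Of these 45, 19 were at a TPM of at least 10 in each library. Another 97 were under TPM 1 in both libraries, 25 of them at 0 counts. The defining genes of several types were at or near 0. For astrocytes 1 of 11 was detected, with summed TPM of 26.7 and 6.96. *Gfap*, their intermediate filament, was at TPM 0 and 0, and the water channel *Aqp4* at 0.01 and 0. The one detected was the glutamate transporter *Slc1a2* at 22.6 and 3.27. For microglia and macrophages 2 of 14 were detected, with summed TPM of 5.53 and 8.48. The receptor *Csf1r* was at 0.08 and 0, and *Cx3cr1*, *P2ry12*, *Tmem119*, *Itgam* and *Ptprc* were each at or below 0.04 in both libraries.

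The endothelial list had 1 of 10 detected, *Egfl7* at TPM 26.4 and 37.9, a gene whose exons overlap those of *Agpat2* on the other strand. The junction gene *Cdh5* was at 0 and 0.02. In the pericyte and fibroblast list 1 of 12 was detected, smooth muscle actin (*Acta2*) at 7.84 and 6.94. In the oligodendrocyte list 2 of 10 were detected, of which *Mbp*, the myelin basic protein gene, was at 24.1 and 16.7, while the lineage factor *Sox10* was at 0.03 and 0. Rods had 2 of 12, with *Rom1* at 24.3 and 19.6. Cones had 2 of 10, and cone arrestin (*Arr3*) was at 0.10 and 0. Bipolar cells had 3 of 11, one of which, *Isl1*, is shared with RGCs. Retinal pigment epithelium had 1 of 8, red blood cells 0 of 6 and lens crystallins 3 of 16.

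Müller glia, the radial glia of the retina, had 8 of 11 markers detected and summed TPM of 2612 and 1814. Most of this was clusterin (*Clu*) at TPM 2015 and 1302. *Dkk3* was at 312 and 213. Vimentin (*Vim*), which developing neurons share, was at 190.0 and 207, and glutamine synthetase (*Glul*) was at 80.6 and 68.6. The retinoid-binding protein *Rlbp1* was at 1.16 and 3.46. The glial factor *Sox9* was at 0.34 and 1.07, and the glial potassium channel *Kcnj10* was at 0.05 and 0. Of 9 Müller glia markers with a mean of at least 1 CPM, 4 were higher in replicate 1. Over 2-fold higher there were 0, against 5.52% of all genes, and 2 were over 2-fold higher in replicate 2, against 2.25%. The median log2 difference of the list was 0.64, and 0.39 after length correction.

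Amacrine cells are the inhibitory interneurons that share the ganglion cell layer with RGCs. Of their 16 markers 8 were detected, beside 30.4% of all genes and 12131 of 21474 protein-coding genes. The summed TPM of the markers was 916 in replicate 1 and 511 in replicate 2. *Pax6*, which RGCs and progenitors also express, held most of it at TPM 586 and 307. *Gad1*, which makes GABA, was at 25.5 and 1.83, a log2 difference of -3.67 (interval -3.97 to -3.39). The vesicular GABA transporter *Slc32a1*, with an uncertain count, was at 11.2 and 0.84. *Th*, of dopaminergic amacrine cells, was at 31.2 and 6.78. The amacrine factor *Tfap2b* was at 6.77 and 0.77, and *Chat*, of starburst amacrine cells, was at 0.76 and 0. Of 12 amacrine markers with a mean of at least 1 CPM, 11 were higher in replicate 1 and 6 of them over 2-fold, against 5.52% of all genes, and 6 were so after length correction. Replicate 2 was higher for *Calb2*, which RGCs share, at 67.7 and 102.

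Of 8 horizontal cell markers 4 were detected, beside 30.4% of all genes and 12131 of 21474 protein-coding genes. Their summed TPM was 340.0 and 103, of which *Calb1* held most. *Onecut1*, with an uncertain count, was at TPM 10.8 and 3.08. *Lhx1*, a defining factor of horizontal cells, was at 1.23 and 0.29. Of the 6 with a mean of at least 1 CPM, 4 were over 2-fold higher in replicate 1, against 5.52% of all genes, and 3 were after length correction, against 4.8%. The summed TPM of the RGC markers was 4163 and 4216. *Sncg*, higher in replicate 2, held most of it, and the other 5 RGC markers were each lower in replicate 2 by TPM, with sums of 1810.4 and 1559. By scaled counts 4 of the 6 were higher in replicate 1, with a median log2 difference of -0.06 over the 6.

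Of 23 retinal progenitor and cycling markers 9 were detected, beside 30.4% of all genes and 12131 of 21474 protein-coding genes. Apart from *Pax6* and *Six3*, which some retinal neurons keep, the highest was the replication clamp gene *Pcna* at TPM 63.7 and 73.1. The proneural factor *Neurog2* was at 21.3 and 2.42, and *Sox2*, of progenitors and some amacrine cells, was at 6.73 and 0.50. The proliferation gene *Mki67* was at 0.20 and 0.12, and the mitotic kinase *Cdk1* was at 0.68 and 0.62.

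Over all 13370 genes the median absolute log2 difference between the control libraries was 0.31, and the coefficient of variation that edgeR estimated from the pair was 0.271. In replicate 1, 738 genes (5.52%) were over 2-fold higher, and in replicate 2, 301 genes (2.25%). Among genes with a mean of at least 10 CPM, the 10 most in favour of replicate 1 included *Vip*, *Pdyn*, *Gad1* and *Neurog2*. *Igf2*, an imprinted growth factor, was at TPM 171 and 11.0 (log2 -3.75, interval -3.90 to -3.61). *H19*, an imprinted long non-coding RNA that neighbours *Igf2*, was at 1448 and 169 (log2 -2.96), ranked 62 in replicate 1 and 1100 in replicate 2, and rests on 49666 counts. *Igsf9b*, a synaptic adhesion gene, was at 42.8 and 4.57 (log2 -3.24). *Pde11a*, a phosphodiesterase, was at 12.8 and 1.93, and *Dgkh*, a diacylglycerol kinase, was at 31.8 and 4.10. *mt-Nd4l*, which overlaps *mt-Nd4* and had an uncertain count, was at 1617 and 252.

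Of the 10 genes most in favour of replicate 2, 6 had uncertain counts, namely *Gm13610*, *Gm37376*, *Gm7536*, *Srp54a*, *mt-Nd3* and *Gm20431*. The exons of *Gm13610* overlap *Prrc2b* on the other strand and those of *Gm37376* overlap *Malat1*, and without knowledge of the strand their reads cannot be told apart. *Fxyd6*, a regulator of the sodium pump, was at TPM 35.2 and 115 (log2 1.83). *Prkcq* had a log2 difference of 1.78. *Col23a1*, a membrane collagen, was at 5.96 and 17.97 (log2 1.72). The Y-linked *Eif2s3y* was at 11.0 and 28.6 (log2 1.71), and *Ddx3y*, also on the Y chromosome, at 8.06 and 15.1. *Xist*, the RNA of the inactive X chromosome, was higher in replicate 1 at 72.8 and 30.3. Transcripts of *Xist* and of the Y chromosome were thus present in both libraries.

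Of the 10 genes with the highest mean TPM among those over 2-fold apart, 5 had uncertain counts (*Gm10222*, *mt-Nd4l*, *Gm8325*, *mt-Nd3* and *Gm37376*). *mt-Nd5*, a subunit of complex I, was higher in replicate 1 at TPM 2597 and 1142. *2900097C17Rik*, a long intergenic RNA, was also higher there at 582 and 179. *Usmg5*, a small subunit of ATP synthase, was higher in replicate 2 at 850.5 and 1913, and *Rpl22l1*, a ribosomal protein gene, was at 261 and 526. Both were short, with lengths of 341 and 537 bases, and under 2-fold after length correction, at 0.66 and 0.60.

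**Figure D4:**
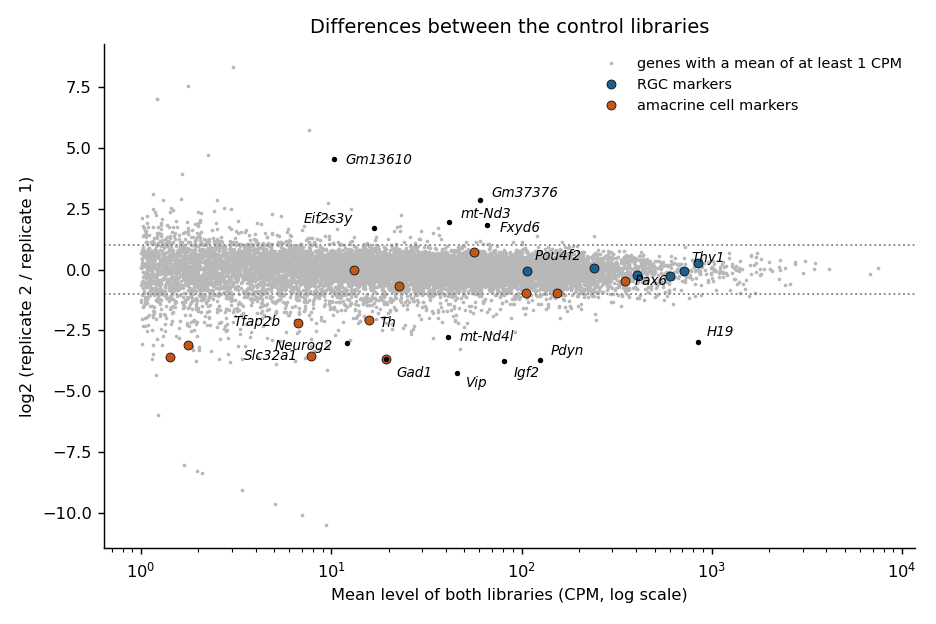
log2 of replicate 2 over replicate 1 (vertical) against the mean of both libraries in CPM (horizontal, log scale), with grey points for the 13370 genes, blue for RGC markers, orange for amacrine markers, black for other named genes and dotted lines at 2-fold. RGC markers lie near 0 while 6 amacrine markers lie below the lower line, with *Gad1* at -3.67.

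The difference between the libraries moved with transcript length. Across the 13370 genes the Spearman rho of length and log2 difference was -0.51, a description over genes that share both libraries. In the shortest of 10 bins of about equal size the median log2 difference was 0.41, at a median length of 837 bases. It was lower in each longer bin, down to -0.49 in the longest, at 6936 bases. In that longest bin 12.6% of the genes were over 2-fold higher in replicate 1 and 0.598% in replicate 2, and in the shortest bin 4.41% and 7.62%. When the median of 20 length bins was subtracted, 642 genes (4.8%) were over 2-fold higher in replicate 1 and 227 (1.7%) in replicate 2, with a median absolute difference of 0.23. GC content moved less with the difference (rho = -0.14 over 13294 genes).

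Some lists moved with this correction and others little. The median log2 difference of calcium channels went from -0.52 to -0.17, and that of guidance genes from -0.34 to -0.09. The amacrine list went from -1.52 to -1.35 and the direction-selective list from -1.51 to -1.57. The median over all genes was 0.01. The cause of the length trend was not tested.

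**Figure D5:**
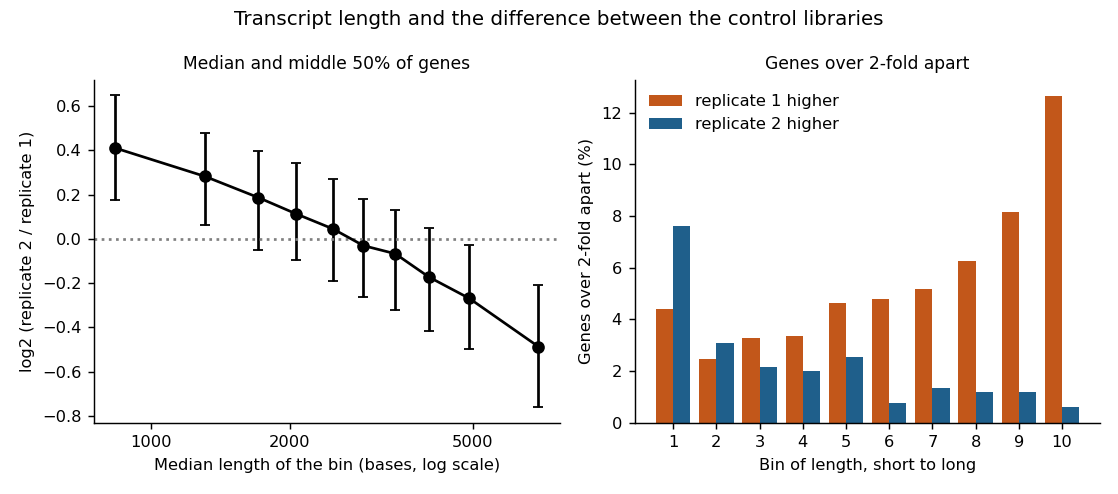
Left, median log2 of replicate 2 over replicate 1 (points) with the middle 50% of genes (bars) against the median length of 10 bins of genes in bases (log scale). Right, the percent of genes over 2-fold higher in replicate 1 (orange) and in replicate 2 (blue) per bin, short to long, where the share higher in replicate 1 reaches 12.6% in the longest bin while the median at left has fallen from 0.41 to -0.49.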

How the data were processed

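RNA-seq of cultured RGCs was analysed for the 2 control AAV libraries alone. The files of the 4 libraries from cultures given AAV encoding Sox11 or Sox11K91A were not used, and 0 columns of other samples entered. The members and gene lists were chosen with earlier results of these data known.

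According to the methods and the submitters' processing notes, reads were mapped to mm10 with STAR and quantified with RSEM on DNAnexus by the authors, who deposited one table per library. Versions, annotation and strand setting are not given in the sources used here. Each table holds an expected count, the estimated number of reads of a gene, and TPM, which the authors normalized for effective length to a fixed total per library. It also holds lengths and the posterior SD of the estimates. Of 69690 entries, 43346 are Ensembl genes, 26248 numbered entries and 96 spike-ins, and the last 2 kinds had 0 counts. Of the expected counts above 0, 80.9% and 82.2% were whole within 1e-08, and all were rounded. Depth was 28392830 and 37061718 expected counts.

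TMM factors and the common dispersion came from edgeR 4.0.16 in R 4.3.3, and levels, ranks, counting intervals and figures from Python 3.11.15 with pandas 2.3.3, numpy 2.4.6, scipy 1.17.1 and matplotlib 3.10.9. Detection required TPM of at least 1 in each library. The log2 difference used a prior of 0.5 counts over genes with a mean of at least 1 CPM, with a 2-fold limit. Symbols were matched by Ensembl ID to GENCODE M21, which named 42462 genes, of which 20 symbols stood for more than 1 gene. There were 51 lists with 798 distinct genes, of which 4 symbols (*Tusc5*, *Lilrb3*, *Norad* and *Peg13*) were not matched. Named genes were the highest, lowest and defining members of a list, the 20 most abundant genes outside the mitochondrial genome, the 10 with the largest difference in each direction at a mean of at least 10 CPM, and the 10 most abundant of those over 2-fold apart. Overlapping exons and near-identical copies make counts uncertain, because the strand setting is not known. Some genes of the lists are counted but not reported here by name. The difference step was checked on simulated data. Alternatives changed the TPM limit, the scaling (DESeq2 1.42.0 size factors, library size), the prior, the CPM filter, the fold limit and rounding, dropped mitochondrial genes or 1 library, or corrected for length or GC content. Intervals cover counting error only, as does the limit of 3 counts behind a count of 0.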

Additional observations from a re-analysis of the deposited data

How the results depend on the processing

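The correction for length, the correction for GC content and the removal of genes with uncertain counts were chosen after seeing the data. Of 639 genes of the lists and named genes, none that was over 2-fold apart changed sign under the length or GC correction, other scalings or the ratio of TPM. The scalings and corrections move a gene by less than 2-fold, so only the ratio of TPM could have reversed such a gene. Among the genes within 2-fold, 113 changed sign with length correction, 71 by the ratio of TPM, 37 without scaling, 22 with GC correction and 2 with DESeq2 size factors. With length correction the median of 7 of 49 lists changed sign, that of RGC transcription factors from -0.11 to 0.02 and that of neuropeptides and granins from 0.09 to -0.11. Of markers of other cell types, 45 were detected, against 68 at a TPM of at least 0.5, 83 at 10 or more expected counts in each library, and 54 to 61 from 1 library alone. The summed TPM of the RGC markers was 4189.9, against 4428 when TPM was rescaled without mitochondrial genes and 4163 to 4216 from 1 library alone. The share of the 100 most abundant genes was 22.6%, against 16.0% of expected counts, 19.8% without mitochondrial genes, 21.4% without uncertain counts and 21.9% to 23.4% from 1 library alone. Of the 20 most abundant genes 7 stayed by CPM and 18 from either library alone, from which 13649 to 13871 genes were detected. Over 2-fold higher in replicate 1 were 738 genes, against 3409 among all genes with a count, 331 at a mean of at least 10 CPM and 1790 at 1.5-fold. In replicate 2 they were 301, against 2475, 56 and 1264 in the same order and 190 without uncertain counts. Of the 639 genes, 46 changed sides of the 2-fold limit with length correction, 36 by the ratio of TPM, 23 without scaling, 12 with GC correction and 1 with DESeq2 size factors. Leaving out a library leaves no difference between libraries to compute. No paired analysis was possible because there was only 1 group of libraries.

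With 2 libraries of 1 group no test was run, and the counting intervals leave out variation between cultures. At these depths levels under TPM 1 rest on few reads for short genes.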
